A study of Oryza sativa with 6 samples.

Results

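The loci described here are the 51 gene models of the deposited table whose identifiers run from LOC_Os05g26000 to LOC_Os05g27000, out of 39217 models in all. They were chosen by locus number alone, as the stretch of rice chromosome 5 that holds the tandem cluster of small prolamin genes and the neighbours of that cluster. RNA was sequenced from 3 libraries of drw1 mutant grains and from 3 libraries of wild-type ZH11 grains, both collected 3 days after pollination from plants grown in paddy fields. ZH11 is the line that the mutant was set against, and the labels give neither the allele nor the age of the plants. Nothing in the labels ties the libraries to separate plants, and the spread behind each p-value is that between libraries, which may be technical.

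Prolamins are the alcohol-soluble storage proteins of cereal grains. In rice endosperm they are made on the endoplasmic reticulum and packed into protein bodies that bud from it, whereas the glutelins and the globulin go to storage vacuoles. Prolamin genes are short, lack introns and many lie in tandem copies, and their transcripts are known to build up as the endosperm fills. The deposited table pairs no identifier with a name, and 0 of the 51 identifiers are in the RefSeq gene table used here (assembly ASM3414082v1). Nor are any of the 39217 identifiers of the whole deposited table, so this is not particular to the region. No single locus can therefore be called a prolamin gene here, the label of the region could not be checked member by member, and members are described by identifier, model length and level.

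Library totals were 16440923 to 17270099 counts in drw1 and 15582373 to 24147797 counts in ZH11. Levels are CPM, counts scaled by the TMM factors of edgeR to a common library size. A library without a read of a model lies below a floor of 3 counts, equal to 0.166 to 0.173 CPM in drw1 libraries and to 0.131 to 0.201 CPM in ZH11 libraries. Floors and intervals cover counting error only. Fold changes are drw1 over ZH11 on the log2 scale. The mutant's columns are headed by a prefix that is not drw1, and each direction given here rests on taking them as drw1, the only other genotype of the series.

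A set of short models in the middle of the region was almost unread in drw1. The level summed over the region was 88.4% of that of ZH11. Under the same scaling the whole table summed to 89.7% and the other chromosome 5 loci to 87.5%, so no fall particular to the region is read from its sum. Summed over the 51 models, the level was 294, 271 and 269 CPM in drw1 and 313, 315 and 315 CPM in ZH11. The sum was carried by long neighbours on both sides of the middle. Of the 51 models, 15 had no count in any library, 12 had 1 to 19 counts over the 6 libraries, and 24 had 20 or more. A filter on low counts (edgeR's default) left 20 of these 24 for testing.

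Among the 20 tested members, 12 passed the quasi-likelihood test of edgeR at an adjusted p of 0.05, 3 of them higher and 9 lower in drw1. Of the 23395 genes tested over the whole table, 70.1% passed, 35.7% higher and 34.4% lower, so the region as a unit was not richer in calls than the genome. A fall of at least 2-fold was found in 6 members, against 14.6% of all tested genes, and a rise of at least 2-fold in 2, against 12.7%. The median log2 fold change was -0.26 in the region and 0.03 over all tested genes. These counts cannot be read as support for a change of the region, because 5 members passed the filter through ZH11 alone and 1 through drw1 alone, with no library of the other genotype at the filter's cutoff of 0.593 CPM, and such members had to differ. LOC_Os05g26032, a member that rose, reached the cutoff in all 3 drw1 libraries but in only 2 of ZH11. Of the 12 members that reached the cutoff in all 6 libraries, 4 were lower, 1 was higher and 7 did not pass.

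**Figure D1:**
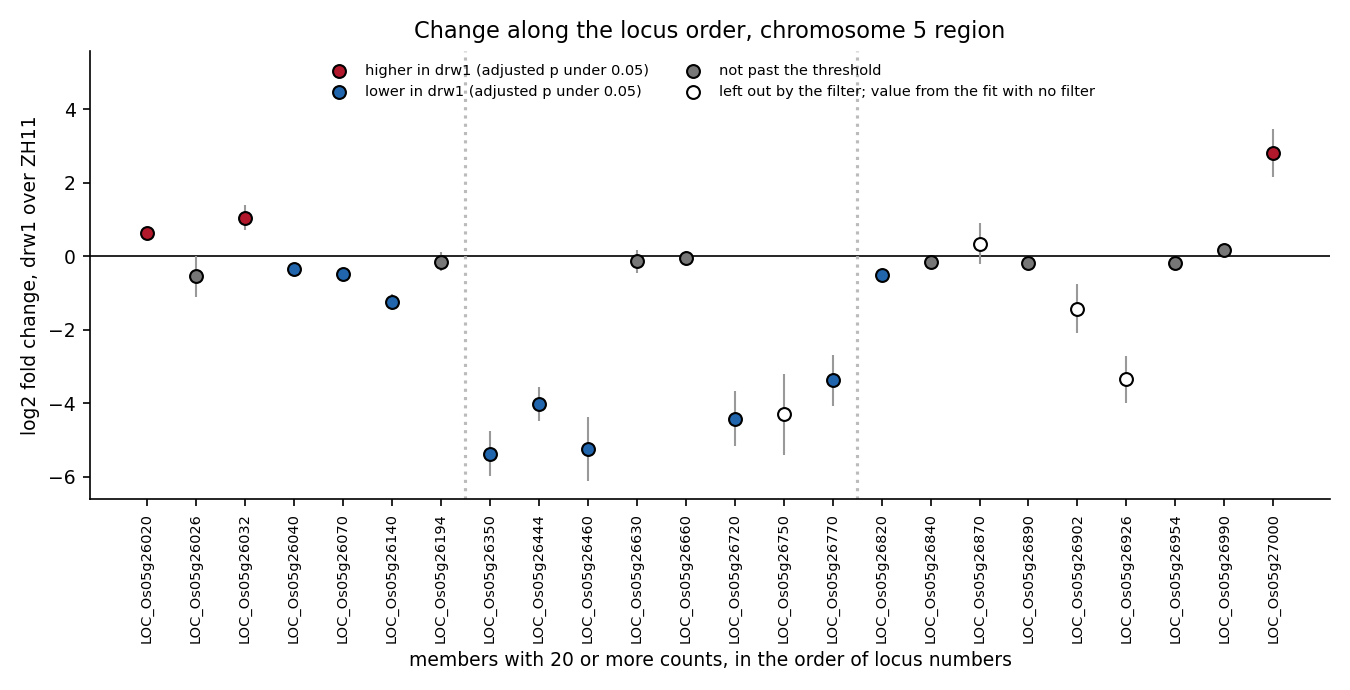
Log2 fold change (drw1 over ZH11, y axis) of the 24 members with 20 or more counts, in the order of their locus numbers (x axis); bars are approximate standard errors and dotted lines part the middle stretch from its neighbours. Filled points are the 20 tested members and open points the 4 left out by the filter, drawn from the fit with no filter. Values of -3.38 to -5.37 were found among tested members of the middle stretch, where LOC_Os05g26630 and LOC_Os05g26660 lay near 0.

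Read in locus order, the falls of at least 8-fold among tested members all lay in the middle stretch, from LOC_Os05g26350 to LOC_Os05g26770. The first and last models of the stretch are themselves among these falls, so the place of the falls within it is a description only. That stretch holds 24 models, of which 8 had no count in any library, 8 had 1 to 19 and 8 had 20 or more. Of its 7 tested members, 5 were lower in drw1, each by at least 8-fold, 0 were higher and 2 did not pass. Over the whole table, 1.82% of tested genes were lower by at least 8-fold. All 5 passed the filter through ZH11 alone, so nothing is read from that comparison beyond the values of the members themselves, which follow.

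LOC_Os05g26444, a model of 453 bases, had the highest level among the models of 453 and 462 bases. It had 5, 0 and 3 counts in drw1 and 52, 58 and 34 counts in ZH11. In CPM it averaged 0.151 ± 0.144 in drw1 and 2.55 ± 0.27 in ZH11 (SD, n = 3 each). Every drw1 library lay below every ZH11 library, as in 35.3% of all tested genes (37.3% lay the other way). The log2 fold change was -4.02 (SE 0.47; adjusted p = 7.9e-07, edgeR quasi-likelihood test), and -4.81 without drw1 replicate 1.

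LOC_Os05g26350, also of 453 bases, had 0, 0 and 2 counts in drw1 and 35, 35 and 32 counts in ZH11. The genotypes did not overlap, with 0 to 0.111 CPM in drw1 and 1.53 to 2.15 CPM in ZH11. The fitted log2 fold change was -5.37 (SE 0.62; adjusted p = 6.6e-07, edgeR quasi-likelihood test). With so few counts in drw1 the fitted value depends on the prior count. It was -8.07 without drw1 replicate 3, which leaves drw1 at 0 counts. The ratio of summed counts, drw1 over ZH11 after scaling, was 0.0208 with an exact 95% interval of 0.00249 to 0.0772.

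LOC_Os05g26460 is another model of 453 bases that was read in ZH11, with 0, 0 and 1 counts in drw1 and 13, 15 and 25 in ZH11. Its levels were 0, 0 and 0.0553 CPM in drw1 and 0.705, 0.656 and 1.68 CPM in ZH11. ZH11 replicate 3 stood above the other ZH11 libraries, and all 3 were above drw1. The ratio of summed counts was 0.02 (exact 95% interval 0.000498 to 0.117) and the fitted log2 fold change -5.24 (SE 0.87; adjusted p = 4.3e-05, edgeR quasi-likelihood test), and -7.15 without drw1 replicate 3, which held the only drw1 count.

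LOC_Os05g26720, LOC_Os05g26750 and LOC_Os05g26770 share a length of 462 bases, and their identifiers lie further along the order. LOC_Os05g26770 had 0, 5 and 0 counts in drw1 and 16, 20 and 22 in ZH11, with 0 to 0.288 CPM in drw1 and 0.868 to 1.48 CPM in ZH11. Its log2 fold change was -3.38 (SE 0.70; adjusted p = 3.7e-04, edgeR quasi-likelihood test), the smallest among the 5 tested models of 453 and 462 bases with all libraries in the fit. Without drw1 replicate 2 it was -7.27, without drw1 replicate 1 it was -2.83 and without drw1 replicate 3 it was -2.81, both under 8-fold. All its drw1 counts came from replicate 2, in which LOC_Os05g26350, LOC_Os05g26444, LOC_Os05g26460 and LOC_Os05g26720 had 0. LOC_Os05g26720 had 2, 0 and 0 counts in drw1 and 23, 17 and 13 in ZH11, a ratio of summed counts of 0.0401 (exact 95% interval 0.00473 to 0.152) and a fitted log2 fold change of -4.42 (SE 0.74; adjusted p = 4.4e-05, edgeR quasi-likelihood test), which was -7.13 without drw1 replicate 1, the only drw1 library with a count.

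LOC_Os05g26750 had 0, 0 and 1 counts in drw1 and 3, 14 and 11 in ZH11, and was too low to be tested in the main fit. ZH11 replicate 1 was the lowest of its genotype at 0.163 CPM, above the highest drw1 library at 0.0553 CPM. These are 3 counts against 1, at and below the floor of 3 counts, so the separation of these libraries is not resolved. With no filter on low counts its log2 fold change was -4.30 (SE 1.10; adjusted p = 5.1e-04, edgeR quasi-likelihood test). The ratio of summed counts was 0.0379 (exact 95% interval 0.000928 to 0.23).

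**Figure D2:**
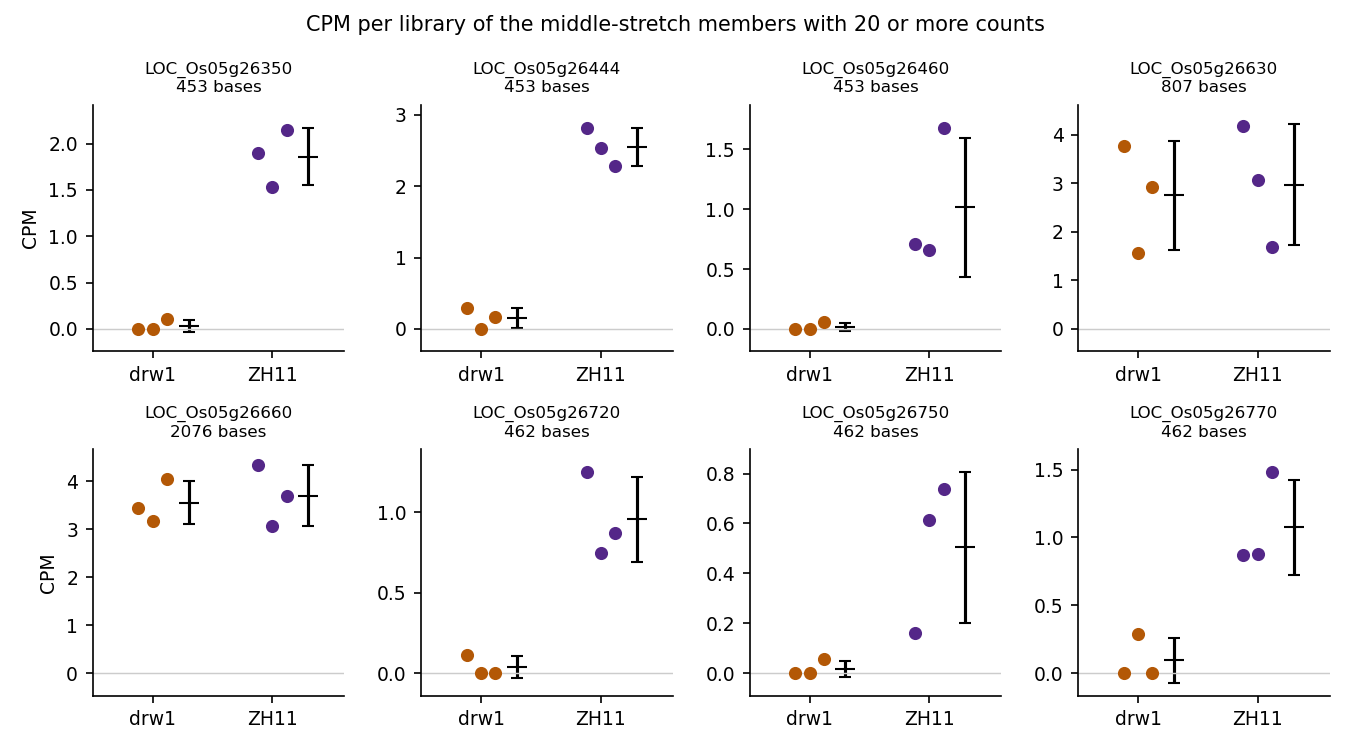
CPM per library (y axis, a separate linear scale in each panel) of the 8 middle-stretch members with 20 or more counts, drw1 left of ZH11; points are libraries and the bar beside them is the mean ± SD (n = 3). In the 6 models of 453 or 462 bases every drw1 library lies below every ZH11 library. In LOC_Os05g26630 and LOC_Os05g26660 the genotypes overlap. Over the whole table, every drw1 library lay below every ZH11 library in 35.3% of tested genes, and above in 37.3%. Of the 6 models, 5 passed the filter through ZH11 alone and LOC_Os05g26750 was not tested, so nothing is read from their number.

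Other short models of the middle stretch had too few reads to be tested, and what reads they had came mainly from ZH11. LOC_Os05g26620, of 453 bases, had 0 counts over drw1 and 3, 4 and 2 in ZH11. It was 2.82-fold lower in drw1 with drw1 set to the floor of 3 counts over its libraries and the ZH11 counts taken as exact. LOC_Os05g26368, of 315 bases, had 0 counts over drw1 and 1, 4 and 3 in ZH11, 2.51-fold lower on the same terms. These folds leave out counting error in ZH11, so they are not lower bounds. With no filter, under which 56.8% of genes passed, 29.0% higher and 27.8% lower, both passed the quasi-likelihood test of edgeR, at adjusted p = 0.027 for LOC_Os05g26620 and adjusted p = 0.039 for LOC_Os05g26368. LOC_Os05g26412, LOC_Os05g26452, LOC_Os05g26480 and LOC_Os05g26490 had 0 counts over drw1 and 1 or 2 over ZH11, too few for a comparison. LOC_Os05g26670 and LOC_Os05g26760 each had 1 count over drw1 and 1 over ZH11.

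Lengths repeated among these models. Of the 51 models 9 were 453 bases long and 3 were 462, all within the middle stretch, and a further 2 were 447 and 2 were 315 bases long there. All 24 lengths of the middle stretch are multiples of 3. The table does not show whether models of equal length are close copies, how reads that match several copies were counted is not given in the sources used here, and the division of reads among such models is uncertain. Of the 9 models of 453 bases, 3 had no count in any library. Together the 9 had 0.287, 0 and 0.332 CPM in drw1 and 5.59, 4.94 and 6.37 CPM in ZH11, so their sum does not depend on how reads were split among them, though reads dropped for matching several models would be missing from it. The 3 models of 462 bases together had 0.115, 0.288 and 0.0553 CPM in drw1 and 2.28, 2.23 and 3.09 CPM in ZH11.

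Taking the 20 middle-stretch models of 315 to 462 bases as a set, the range of lengths that repeat there and a choice made after values were seen, the sum was 0.377 ± 0.0798 CPM in drw1 and 8.36 ± 1.22 CPM in ZH11 (SD, n = 3 each). This is 20 counts over drw1 and 461 over ZH11, and the drw1 level was 4.51% of that of ZH11. In drw1 13 of the 20 had no read in any library, against 7 of the 20 in ZH11, and the same 7 were unread in both. The other 31 models of the region together stood at 90.7% of the ZH11 level, near the 89.7% of the whole table. Even in ZH11 the set was a minor part of the transcriptome at this stage: per kilobase of model, LOC_Os05g26444 had a level of 5.62 CPM and LOC_Os05g26350 one of 4.1 CPM, while the neighbour LOC_Os05g26840 had 37.5 CPM.

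Not every model of the middle stretch fell. LOC_Os05g26630, of 807 bases, lies between LOC_Os05g26620 and LOC_Os05g26720 in the order. It had 3.78, 1.56 and 2.93 CPM in drw1 and 4.18, 3.06 and 1.68 CPM in ZH11, with wide overlap and a log2 fold change of -0.13 that did not pass (SE 0.31; adjusted p = 0.72, edgeR quasi-likelihood test). LOC_Os05g26660, of 2076 bases, had 3.44, 3.17 and 4.04 CPM in drw1 and 4.34, 3.06 and 3.69 CPM in ZH11, and its log2 fold change of -0.05 did not pass either (SE 0.20; adjusted p = 0.84, edgeR quasi-likelihood test). Both lie among the short models that were nearly unread in drw1, and both lost no call and gained none in any alternative.

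**Figure D3:**
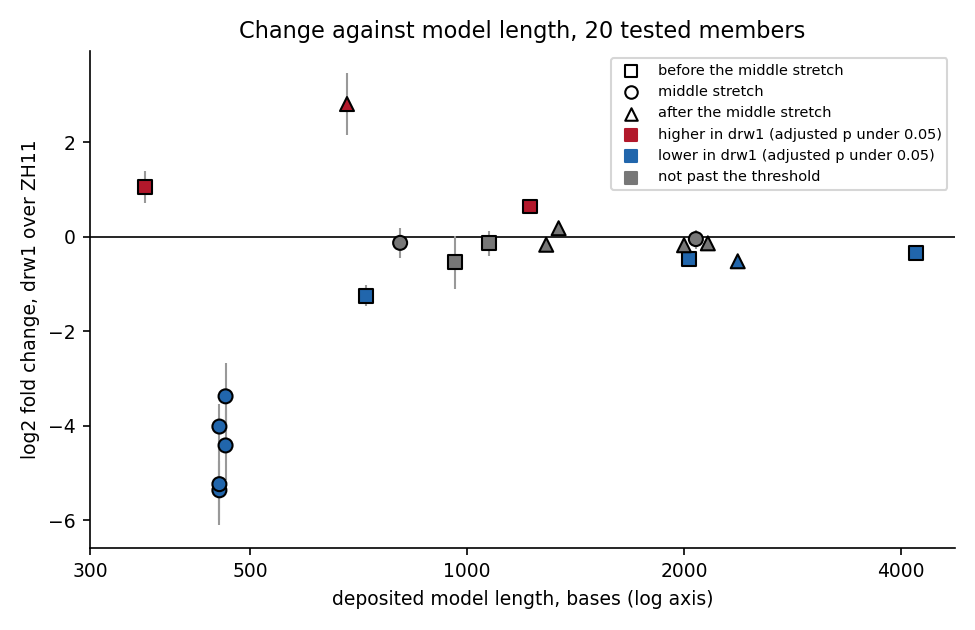
Log2 fold change (drw1 over ZH11, y axis) against the deposited model length in bases (x axis, log scale) for the 20 tested members; the marker gives the stretch of locus numbers, the colour the outcome of the test and the bars approximate standard errors. The 5 models of 453 and 462 bases lie at -3.38 to -5.37, and the 10 models of 1000 bases or more lie between -0.52 and 0.64.

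The members of the whole region were also split at a model length of 1000 bases. Of the 10 tested models under 1000 bases, 6 were lower and 2 higher (median log2 fold change -2.31). Of the 10 of 1000 bases or more, 3 were lower and 1 higher, with a median of -0.16. Over the whole table, 26.2% of tested models under 1000 bases were lower and 40.1% higher, with a median of 0.19. Among tested models of 1000 bases or more 36.6% were lower and 34.5% higher, with a median of 0.00. The longer members of the region were thus lower at about the share of the table (30%), but higher less often (10%). Called in either direction were 40% of them, against 71.1% of such models in the table. The short set of the region again includes the 5 models that passed the filter through ZH11 alone. Of its other tested models, LOC_Os05g26140 was lower, LOC_Os05g26032 and LOC_Os05g27000 were higher, and LOC_Os05g26026 and LOC_Os05g26630 did not pass. The difference between the length classes was not tested.

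Before the middle stretch, from LOC_Os05g26020 to LOC_Os05g26210, log2 fold changes of tested members ran from -1.25 to 1.05. Of 12 models 7 were tested, with 3 lower, 2 higher and 2 not past the threshold. The share called, 71.4%, was near the 70.1% of the whole table. LOC_Os05g26140, of 723 bases, had the largest of these falls, with 4.64, 2.36 and 3.59 CPM in drw1 and 10.7, 8.09 and 6.24 CPM in ZH11. The genotypes did not overlap, and its log2 fold change was -1.25 (SE 0.22; adjusted p = 9.7e-05, edgeR quasi-likelihood test). LOC_Os05g26070 had 11.8, 10.8 and 10.4 CPM in drw1 and 13.7, 16.4 and 15.9 CPM in ZH11, a log2 fold change of -0.48 (SE 0.11; adjusted p = 0.0011, edgeR quasi-likelihood test).

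LOC_Os05g26040, the longest model of the region at 4197 bases, had 16.3, 15.0 and 13.5 CPM in drw1 and 14.8, 20.1 and 21.9 CPM in ZH11. ZH11 replicate 1 lay inside the drw1 range. Its fall of 0.34 on the log2 scale (SE 0.13; adjusted p = 0.03, edgeR quasi-likelihood test) was lost in 7 of 14 alternatives, namely library totals, upper-quartile factors, the replicate block, and leaving out drw1 replicate 2 or 3 or ZH11 replicate 2 or 3. Across the alternatives the adjusted p lay between 3.4e-04 and 0.23 (edgeR, DESeq2 or limma).

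Of the rises in that stretch, LOC_Os05g26020 was at 18.8, 19.5 and 18.9 CPM in drw1 and 13.2, 12.9 and 10.4 CPM in ZH11. Each drw1 library lay above each ZH11 library (log2 fold change 0.64, SE 0.11; adjusted p = 5.2e-05, edgeR quasi-likelihood test). LOC_Os05g26032, a model of 357 bases, had 32, 22 and 28 counts in drw1 and 9, 20 and 13 in ZH11, or 1.27 to 1.83 CPM in drw1 and 0.488 to 0.875 CPM in ZH11. It rose by 1.05 on a log2 scale (SE 0.34; adjusted p = 0.011, edgeR quasi-likelihood test), a call that was lost without drw1 replicate 1 and without ZH11 replicate 1, and whose adjusted p lay between 0.0041 and 0.058 across the alternatives. It is a short model that rose, outside the middle stretch.

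After the middle stretch, from LOC_Os05g26820 to LOC_Os05g27000, lie the most abundant members of the region. LOC_Os05g26840 had 78.0, 72.6 and 69.4 CPM in drw1 and 80.0 to 81.9 CPM in ZH11. The libraries did not overlap, yet the log2 fold change of -0.14 did not pass (SE 0.07; adjusted p = 0.068, edgeR quasi-likelihood test). LOC_Os05g26990 averaged 57.9 ± 7.1 CPM in drw1 and 51.2 ± 4.6 CPM in ZH11 (SD, n = 3 each), with overlap, and its log2 fold change of 0.18 did not pass (SE 0.09; adjusted p = 0.095, edgeR quasi-likelihood test). Only LOC_Os05g26820 fell among the abundant models of this stretch, with 32.4, 28.2 and 31.8 CPM in drw1 and 46.2, 43.8 and 42.1 CPM in ZH11 (log2 fold change -0.52, SE 0.08; adjusted p = 2.6e-05, edgeR quasi-likelihood test).

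The other abundant models of this stretch did not pass either. LOC_Os05g26890 had 29.9, 28.8 and 31.7 CPM in drw1 and 33.5, 33.1 and 36.4 CPM in ZH11, without overlap (log2 fold change -0.18, SE 0.08; adjusted p = 0.055, edgeR quasi-likelihood test). LOC_Os05g26954 had 22.2, 21.3 and 23.7 CPM in drw1 and 24.7, 25.1 and 25.7 CPM in ZH11, also without overlap (log2 fold change -0.17, SE 0.09; adjusted p = 0.095, edgeR quasi-likelihood test). LOC_Os05g26840, LOC_Os05g26890 and LOC_Os05g26990 each passed in 2 or 3 of 14 alternatives, and LOC_Os05g26840 stood at 0.01 with library totals as the scaling, which moves the median of all genes to 0.19.

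At the end of the region LOC_Os05g27000, of 681 bases, had 12, 16 and 14 counts in drw1 and 5, 0 and 1 in ZH11. Its level was 0.688 to 0.922 CPM in drw1 and 0 to 0.271 CPM in ZH11, with no overlap. It rose by 2.81 on a log2 scale (SE 0.65; adjusted p = 0.001, edgeR quasi-likelihood test), and the ratio of summed counts was 7.44 (exact 95% interval 3.15 to 21.4). Without ZH11 replicate 1 the log2 fold change was 4.57 and without ZH11 replicate 2 it was 2.10. It passed the filter through drw1 alone.

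The remaining members with 20 or more counts showed no call in the main fit. LOC_Os05g26026 and LOC_Os05g26194 were tested and did not pass, and their libraries overlapped. LOC_Os05g26870 and LOC_Os05g26902 were left out by the filter and did not pass without it, at adjusted p = 0.61 for LOC_Os05g26870 and adjusted p = 0.066 for LOC_Os05g26902 (edgeR quasi-likelihood test). LOC_Os05g26926 was left out too, and its reads came mainly from 1 library, with 3, 2 and 3 counts in drw1 and 77, 3 and 8 in ZH11. Just above the bound of 20 counts over the 6 libraries lay LOC_Os05g26750 with 29, LOC_Os05g26902 with 43 and LOC_Os05g27000 with 48. Just below it lay LOC_Os05g26120 with 11, LOC_Os05g26620 with 9 and LOC_Os05g26368 with 8.

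**Figure D4:**
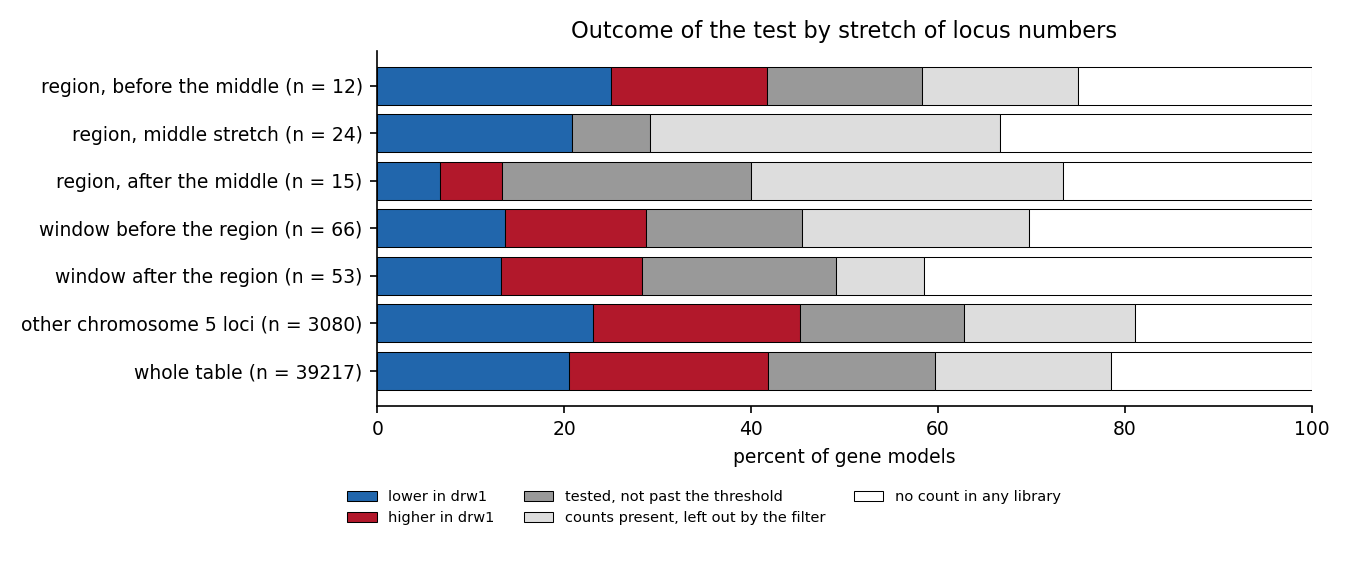
Percent of gene models (x axis) by outcome of the test in the stretches of the region, in the neighbouring windows of locus numbers, in the other chromosome 5 loci and in the whole table (rows, with the number of models). In the middle stretch 5 of 24 models were lower, 0 were higher and 17 were not tested, 8 of them with no count in any library. Of the 39217 models of the whole table, 8039 were lower and 8356 higher. The 5 lower models passed the filter through ZH11 alone, so nothing is read from their number.

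The windows on either side were read in the same way. In the window of equal width in locus numbers before the region, 30 loci were tested, of which 9 were lower, 10 higher and 1 was lower by at least 8-fold; the median was -0.05. In the window after it, 26 were tested, of which 7 were lower, 8 higher and 1 was lower by at least 8-fold; the median was 0.11. On the rest of chromosome 5, 40 of 1935 tested loci (2.07%) were lower by at least 8-fold. Among all tested genes, 34.4% were lower, 35.7% higher and 1.82% lower by at least 8-fold. In the window before, 30% were lower and 33.3% higher, and in the window after 26.9% were lower and 30.8% higher. Neither window was richer in calls than the genome, so their counts are a description only. Unread models were common on both sides as well, 20 of 66 in the window before and 22 of 53 in the window after, against 15 of 51 in the region. The differences between these stretches were not tested.

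Across the table, 53 of 23395 tested loci had at most 3 counts over drw1 and at least 1 CPM in ZH11, and 13 of them lay on chromosome 5. The region held 2 of those 13, LOC_Os05g26350 and LOC_Os05g26460. Tested loci numbered 20 in the region and 1935 on the rest of chromosome 5. The class is defined by the counts that show the fall, so it is a description only.

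Other loci of the storage protein pathway were listed from memory, as an assignment and not an annotation. Of 12 loci assigned to glutelins and the globulin 11 were in the table and 10 were tested. In all 10 the level fell at least 8-fold in drw1, against 1.82% of all tested genes. Of these, 7 had reached the filter's cutoff in all ZH11 but not all drw1 libraries. The summed level of all 11 loci, the untested one included, was 7.49 to 8.54 CPM in drw1 and 263 to 280 CPM in ZH11. By this sum drw1 stood at 3.01% of ZH11, beside 4.51% for the short models of the middle stretch. The fall of these loci was known from earlier results of these data and lends no support to that of the middle stretch. All 4 loci assigned to transcription factors that act on storage gene promoters were lower, against 34.4% of all tested genes, 2 of them with the cutoff reached in all ZH11 but not all drw1 libraries, and with a summed level of 9.01 to 10.6 CPM in drw1 and 51.3 to 58.5 CPM in ZH11.

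In whole grains, fewer endosperm cells and less RNA per endosperm cell cannot be told apart. Of 9 loci assigned to the green pericarp, light-harvesting and Rubisco small subunit genes, 8 were tested, of which 6 were lower, 1 was higher and 1 did not pass, against 34.4% lower and 35.7% higher among all tested genes. The summed level of all 9 loci was 988 to 1062 CPM in drw1 and 1500 to 1724 CPM in ZH11. The 2 loci assigned to the embryo had a summed level of 6.3 to 9.28 CPM in drw1 and 8.71 to 9.06 CPM in ZH11, and the 1 tested did not pass. No locus of these lists was at 0 over a genotype. The part of changes in tissue makeup in the falls of the middle stretch was not tested.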

How the data were processed

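Per the file headers and the values, the authors deposited whole-number read counts per gene model, not normalized, with a model length in bases. The submitters' processing notes name fastp, HISAT2, featureCounts and DESeq. Not given in the sources used here are versions, genome build, annotation, strandedness and how multi-mapped reads were handled. Counts of overlapping and antisense genes are uncertain. All 6 count columns were used and 0 others were present.

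Genotypes were compared on the whole table with edgeR 4.0.16 in R 4.3.3 (quasi-likelihood test, two-sided, genotype only, TMM scaling, default filter), adjusted by Benjamini-Hochberg over 23395 genes, threshold 0.05. Standard errors are approximate, from the F statistic. The code was tested on simulated data. Ratio intervals are exact binomial. Alternatives were DESeq2 1.42.0, limma-voom 3.58.1, 3 scalings, 2 filters, a replicate block, 2 count minimums and each library left out.

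The members and lists were chosen with earlier results of these data known. Values per library were to be given for called members whose higher genotype averaged 1 CPM or more (8 largest rises and falls) and the 8 most abundant. LOC_Os05g26720, LOC_Os05g26750, LOC_Os05g26630, LOC_Os05g26660, LOC_Os05g26926, LOC_Os05g27000 and the members below 20 counts other than the 3 nearest that bound were named after their values were seen, as were sets by shared length. No sequence is shown, since none of the tables used here pairs one with these loci. Same-numbered libraries deviated from their genotype means with correlations of -0.204, 0.043 and -0.164, so the numbers were not taken as pairs.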

Additional observations from a re-analysis of the deposited data

How the results depend on the processing

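Of 272 alternative values of the 20 tested members, 255 kept their side of the threshold, 9 lost a call (LOC_Os05g26040 and LOC_Os05g26032), 8 gained one and 0 turned sign past the threshold. The 5 falls of at least 8-fold kept their call in every alternative that tested them. In the main fit those 5 members passed the filter through ZH11 alone, and the alternatives reuse the same counts. No support is therefore read from the kept calls. LOC_Os05g26770 was under 8-fold, at -2.83 without drw1 replicate 1 and -2.81 without drw1 replicate 3. The stricter filter (at least 50 counts in 3 libraries) tests 12 members and drops those 5, leaving 5 called, 1 higher and 4 lower, 1 of them by at least 2-fold. The median log2 fold change of the region was -0.11 with library totals and -0.50 with no filter. The summed level was 293 CPM in drw1 and 298 CPM in ZH11 with library totals, and in ZH11 302 CPM with upper-quartile factors and 316 CPM with DESeq2 size factors (also used by DESeq2). Leaving out 1 library gave medians of -0.47 to -0.18 and sums of 310 to 320 CPM in ZH11. With the replicate block 11 members were called, and 15505 genes over the whole table, and no other call in the region changed than that of LOC_Os05g26040; only 1 of 6 libraries was closest to the library of its own number. What causes these shifts was not tested. Depth limits the short models: at 3 counts a library, levels under 0.131 to 0.201 CPM are not resolved.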

Other observations

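LOC_Os05g26926, a model of 1344 bases, had 4.18 CPM in ZH11 replicate 1, 0.131 CPM in replicate 2 and 0.537 CPM in replicate 3, against 0.115 to 0.172 CPM in drw1. With no filter on low counts it passed edgeR's quasi-likelihood test (log2 fold change -3.35, SE 0.65, adjusted p = 5.1e-06), although only replicate 1 of ZH11 carried most of the reads. The genotypes overlapped. LOC_Os05g26932, of the same length, had 2 counts over drw1 and 0 over ZH11.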
